A study of Mus musculus with 29 samples.

Results

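Mgat4a (ENSMUSG00000026110) was followed window by window through whole-genome enzymatic methyl-sequencing of mouse lung. It was picked because several neighbouring windows of the gene had fallen in %DNAm, the percent methylation of a window, after ovalbumin (OVA) challenge. The 26 windows that carry its name were taken from 260686 windows overlapping genes, and all 26 had a value in all 29 libraries. The samples were lung (RML) of Balb/c offspring described as 13-week-old females. Dams received saline (Sham) or fine particulate matter (PM) by the nose before mating, through gestation and until weaning, and the offspring were then sensitised and challenged with OVA to give allergic airways disease (AAD) or received PBS by the labels (nebulised saline by the methods of the study). Libraries numbered 7 in each of the Sham, Sham-OVA and PM groups and 8 in PM-OVA, each from whole tissue of an animal that had also undergone lung function testing. Litters and dams of the libraries are not in the labels, so the p-values below measure the spread between libraries that may share a dam.

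Mgat4a encodes a Golgi glycosyltransferase that adds a further N-acetylglucosamine branch to N-linked glycans, the sugar chains attached to asparagine on secreted and surface proteins. More branches allow more galactose and sialic acid to be added, and branched N-glycans are known to hold receptors and transporters at the cell surface. Methylation of CpG dinucleotides in mammals is usually high through the body of a gene and low at CpG-rich start sites, and bodies often hold regulatory stretches whose methylation differs between cell types. Because the tissue was taken whole, a change in the mix of cells and a change within cells cannot be told apart.

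The gene lies on the minus strand of chromosome 1 at 37439340 to 37541016 (GRCm38), spans 101677 bp and has 16 exons in its longest annotated transcript, Mgat4a-205. The windows were numbered 1 to 26 from the annotated start to the 3′ end. Each held 50 CpG dinucleotides, or 51 in window 25, and together they covered 97.6% of the gene. The last 2297 bp of the final exon fell in the neighbouring window, which is named for Unc50. Windows 1 and 2 were short, at 450 and 498 bp, with 111 and 100.4 CpGs per kb, whereas the median window of the whole table had 10.5 per kb. Windows 3 to 26 had between 7.99 and 16.8 CpGs per kb.

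Sequences of 5 stretches show what these windows hold, read on the gene's strand from 5′ to 3′ in lower case with every CpG in capitals. The first is the 250 bases before the annotated start, taken from RefSeq for GRCm38.p6, which lie in window 1 and hold 26 CpGs. Only 9.59% of 32851 RefSeq promoters had at least as many in the same length, and the median was 6. The second is the 250 bases before the start annotated at exon 2, the other entry for the gene, and holds 1 CpG. The other 3 are the most CpG-rich 300 bases free of exons in windows 18 and 14, where %DNAm was lowest after OVA relative to unchallenged libraries, and in window 11, where %DNAm was higher after OVA. They hold 8, 9 and 10 CpGs. The reference is of another strain than the Balb/c animals, so single CpGs may differ.
Upstream of the gene start, chr1:37541017-37541266: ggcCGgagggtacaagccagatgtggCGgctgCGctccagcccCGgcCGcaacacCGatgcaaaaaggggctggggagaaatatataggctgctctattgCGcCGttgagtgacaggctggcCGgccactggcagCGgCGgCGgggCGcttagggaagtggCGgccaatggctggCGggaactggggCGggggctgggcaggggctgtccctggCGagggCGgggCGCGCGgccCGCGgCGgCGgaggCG
Upstream of exon 2, chr1:37536405-37536654: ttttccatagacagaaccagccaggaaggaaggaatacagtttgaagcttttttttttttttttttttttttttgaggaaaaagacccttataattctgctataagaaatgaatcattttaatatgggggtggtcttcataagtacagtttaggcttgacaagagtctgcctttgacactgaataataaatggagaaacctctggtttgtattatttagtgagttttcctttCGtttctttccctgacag
Window 18, chr1:37473355-37473654: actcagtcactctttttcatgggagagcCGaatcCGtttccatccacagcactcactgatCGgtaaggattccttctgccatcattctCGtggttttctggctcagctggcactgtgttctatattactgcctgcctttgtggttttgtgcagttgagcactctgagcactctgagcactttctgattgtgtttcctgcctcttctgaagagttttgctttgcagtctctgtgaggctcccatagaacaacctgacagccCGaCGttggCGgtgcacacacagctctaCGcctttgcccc
Window 14, chr1:37489011-37489310: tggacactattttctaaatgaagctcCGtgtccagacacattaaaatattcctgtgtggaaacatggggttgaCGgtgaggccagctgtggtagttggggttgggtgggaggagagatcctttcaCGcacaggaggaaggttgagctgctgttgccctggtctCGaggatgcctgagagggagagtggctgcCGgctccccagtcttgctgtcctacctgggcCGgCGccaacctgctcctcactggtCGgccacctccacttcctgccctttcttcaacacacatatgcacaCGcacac
Window 11, chr1:37500925-37501224: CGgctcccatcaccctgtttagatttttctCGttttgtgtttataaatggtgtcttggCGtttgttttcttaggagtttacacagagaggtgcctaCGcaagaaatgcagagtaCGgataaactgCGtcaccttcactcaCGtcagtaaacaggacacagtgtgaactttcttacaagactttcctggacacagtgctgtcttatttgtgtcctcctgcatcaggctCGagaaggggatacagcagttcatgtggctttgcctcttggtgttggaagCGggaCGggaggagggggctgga

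The upstream stretch held GGGCGG, the GC box, 2 times over both strands, and 16.7% of all the promoters held it as often or more. It held CCAAT 1 time, and 33.9% of all promoters held it at least once. TATAAA was not found in this window of 250 bases and was present in 12.4% of promoters. These are matches of letters only.

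**Figure D1:**
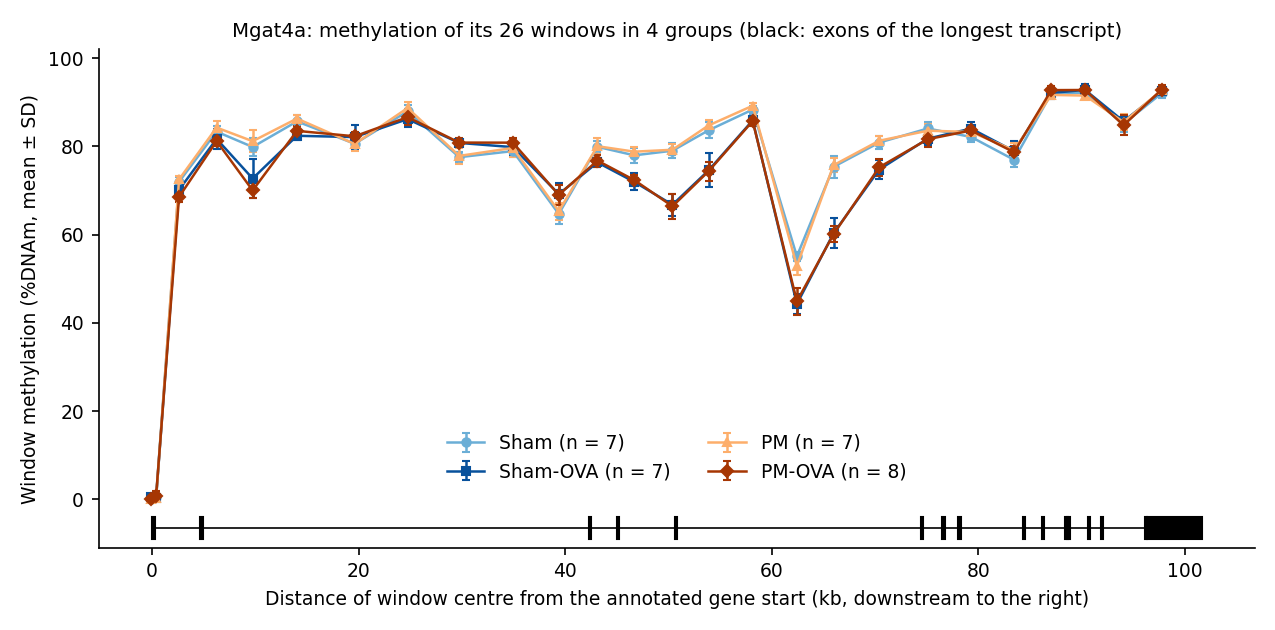
Mean %DNAm (± SD over libraries) of the 26 Mgat4a windows against the distance of the window centre from the gene start in kb, with exons of Mgat4a-205 in black. The lines of the 4 groups lie together at 0 at the start and through the 3′ part, and the OVA groups lie lower from window 12 to window 20, with the widest gap, -15.6 points in PM, in window 18.

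The start of the gene was unmethylated in every library. In window 1, which covers exon 1 and 297 bp upstream of it, %DNAm was 0.0711 ± 0.0596 (SD, n = 7) in Sham, 0.418 ± 0.757 (n = 7) in Sham-OVA, 0.126 ± 0.175 (n = 7) in PM and 0.0532 ± 0.0739 (n = 8) in PM-OVA, and no library exceeded 2.10%. Window 2, in the first intron, did not exceed 3.11%. Neither window moved by more than 0.585 points after OVA. Over the remaining 24 windows the Sham mean lay between 55.1% in window 17 and 92.2% in window 24. Window 4, with exon 2 and the start of 3 further transcripts at its 5′ edge, had a Sham mean of 83.3% ± 1.32 (n = 7). The window spans 3325 bp, so this mean does not show the %DNAm at those starts.

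The loss of %DNAm after OVA was not gene-wide. Of the 26 windows, 14 were lower after OVA in both Sham and PM offspring, 8 were higher in both and 4 went opposite ways. The longest unbroken stretch that was lower in both kinds of offspring ran through 9 windows, 12 to 20, from 37463961 to 37499373 (35413 bp). It contains exons 3 to 7, and it was defined from the differences themselves, so its values are a description. The mean over these 9 windows was 78.2% ± 0.697 in Sham and 70.7% ± 1.22 in Sham-OVA (n = 7 each), a difference of -7.52 points. In PM it was 78.4% ± 0.543 (n = 7) and in PM-OVA 70.8% ± 0.984 (n = 8), a difference of -7.55 points.

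Each library showed it. Sham libraries ranged from 77.3 to 79.3% over the run with a median of 78.0%, and Sham-OVA libraries from 68.6 to 72.6% with a median of 70.7%. The PM range was 77.9 to 79.4% (median 78.1%) and the PM-OVA range 70.0 to 72.8% (median 70.4%). The challenged and unchallenged libraries did not overlap in either kind of offspring. With the run kept as defined from all libraries, leaving out any 1 gave differences between -7.83 and -7.16 points in Sham. In PM they lay between -7.83 and -7.38 points. Since the run was chosen for negative differences, these ranges and the lack of overlap are a description.

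Outside the run the methylated windows went both ways. Windows 3 to 6 formed a second, shorter stretch that was lower in both kinds of offspring, by between -1.65 and -7.15 points in Sham and between -2.79 and -11.2 points in PM, without overlap of the PM and PM-OVA libraries in any of these 4 windows and, in Sham, in window 6 alone. Windows 7, 9, 10 and 11 were higher in both, by up to 4.47 points in Sham and 3.72 points in PM. Over the 15 methylated windows outside the run these offset each other, and the mean differed by 0.00627 points in Sham, from 82.1% ± 0.835 to 82.1% ± 0.890, and by -0.782 points in PM, from 82.7% ± 0.625 to 81.9% ± 0.437. For scale, the mean over all tested windows, which overlap genes, shifted by -0.320 points in Sham and -0.979 points in PM. Averaged over all 26 windows, Mgat4a went from 74.4% ± 0.552 to 71.9% ± 0.842 in Sham and from 74.8% ± 0.426 to 71.8% ± 0.448 in PM, differences of -2.59 and -3.05 points.

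**Figure D2:**
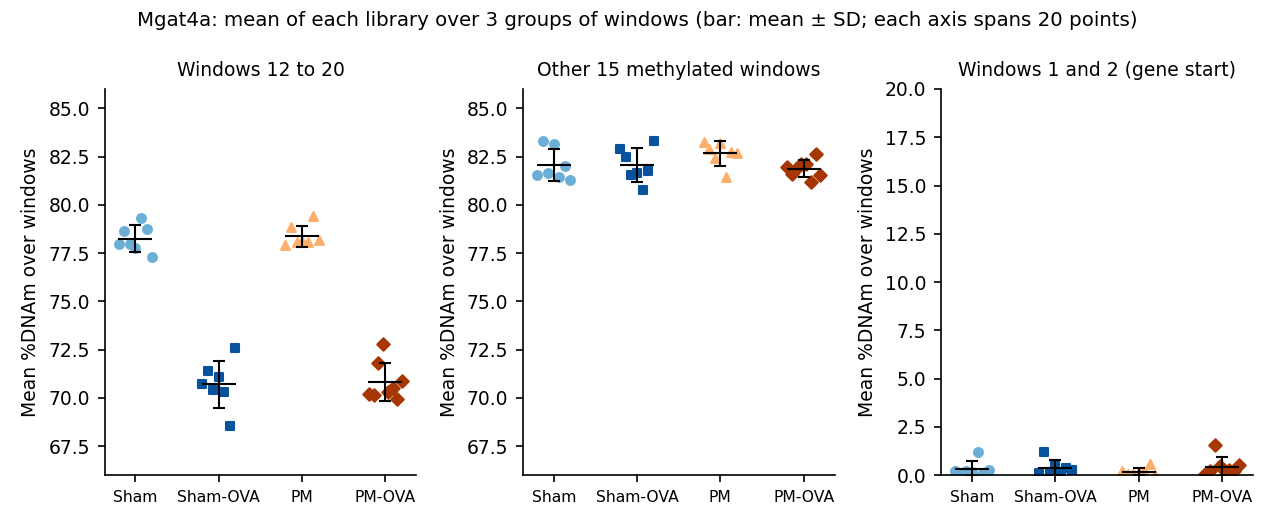
Mean %DNAm of each library over windows 12 to 20, over the other 15 methylated windows and over windows 1 and 2 of Mgat4a, by group, with the group mean ± SD; each vertical axis spans 20 points and the first 2 do not start at 0. Over windows 12 to 20 every challenged library, at 72.8% or less, lies below every unchallenged one, at 77.3% or more, and in the other panels the groups overlap.

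The largest difference was that of window 18. It covers 3349 bp (37473355 to 37476703) of the long intron between exons 5 and 6 and holds no annotated exon. Its lowest, median and highest %DNAm were 72.3, 75.0 and 80.4 in Sham and 55.6, 60.6 and 65.8 in Sham-OVA, and they were 72.5, 76.3 and 77.2 in PM and 57.6, 60.4 and 62.8 in PM-OVA. All challenged libraries thus lay below all unchallenged ones. The group means differed by -15.1 points in Sham (75.4 ± 2.5 to 60.3 ± 3.39) and by -15.6 points in PM (75.7 ± 1.59 to 60.1 ± 1.87).

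Window 14 came next and contains exon 5 (37489011 to 37492235). Its lowest, median and highest values were 77.0, 79.5 and 82.0 in Sham, 65.0, 65.9 and 72.1 in Sham-OVA, 77.2, 79.7 and 80.9 in PM, and 63.0, 65.6 and 71.1 in PM-OVA. The groups again did not overlap. The differences of the means were -12.2 and -12.8 points.

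Window 17 (37476704 to 37480459), next to window 18 in the same intron, had the lowest %DNAm of the 24 methylated windows before challenge. Its lowest, median and highest values were 54.1, 54.9 and 57.1 in Sham against 39.6, 44.5 and 47.1 in Sham-OVA, without overlap. In PM they were 50.4, 52.3 and 56.4 and in PM-OVA 39.6, 45.0 and 50.7, where 1 PM-OVA library lay within the PM range. The differences were -10.8 points in Sham and -8.02 points in PM.

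Window 15 (37485257 to 37489010) holds no exon of Mgat4a but overlaps 4930594C11Rik and Gm43213, so its values cannot be assigned to Mgat4a alone. Its lowest, median and highest values were 81.0, 84.4 and 85.5 in Sham, 69.3, 74.8 and 81.5 in Sham-OVA, 82.7, 85.6 and 85.98 in PM, and 70.2, 75.4 and 76.2 in PM-OVA. A single Sham-OVA library, replicate 7 at 81.5%, reached into the Sham range. The differences were -9.08 and -10.4 points.

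Window 5, in the intron after exon 2, had the largest negative difference outside the run. Its lowest, median and highest values were 77.8, 79.3 and 83.3 in Sham and 77.7, 81.7 and 83.7 in PM, and in PM-OVA 67.1, 70.1 and 72.3, below every PM library. Sham-OVA libraries were spread widely, from 67.1% through a median of 72.2% to 78.8%, and replicate 7 was again the highest of them. The differences were -7.15 points in Sham and -11.2 points in PM.

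**Figure D3:**
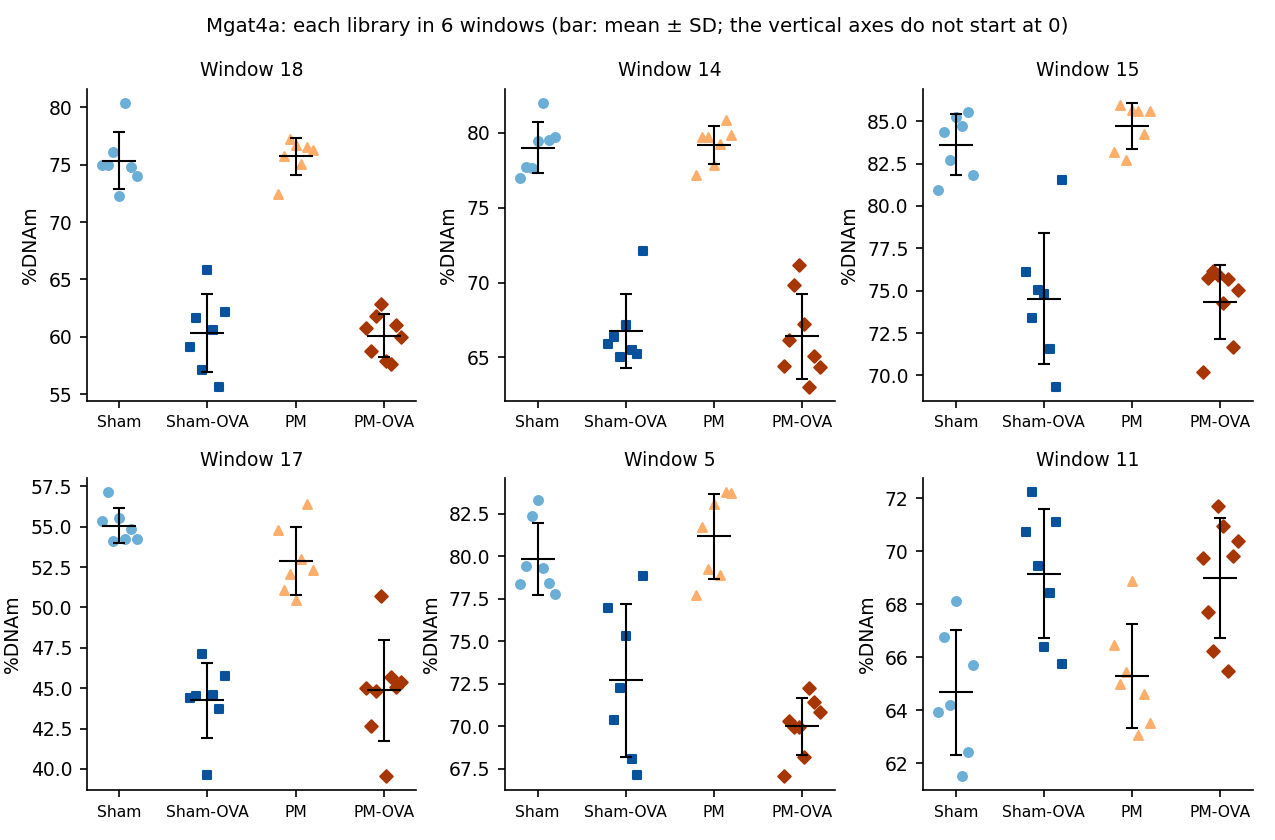
%DNAm of every library in Mgat4a windows 18, 14, 15, 17, 5 and 11, by group, with the group mean ± SD; the vertical axes do not start at 0. In windows 18 and 14 the OVA libraries lie below all others, in window 5 the Sham-OVA libraries spread from 67.1 to 78.8%, and in window 11 the OVA libraries lie higher on average with overlap.

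The other windows of the run moved less. Window 13 (37492236 to 37496405), which contains exon 4 and the starts of 3 shorter transcripts, differed by -6.02 and -6.44 points, and window 19 by -6.11 and -6.01 points, both without overlap in either kind of offspring. Windows 12, 16 and 20 differed by between -1.93 and -3.54 points. Window 16, at 88.3% ± 0.896 in Sham (n = 7), lies between windows 15 and 17 and differed by only -2.45 and -3.48 points. The run was therefore uneven.

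Differences above 0 were smaller. Window 11 (37499374 to 37503884), directly before the run and in the intron between exons 2 and 3, was the lowest of the methylated windows after window 17. It went from 64.7 ± 2.35 to 69.2 ± 2.44 in Sham and from 65.3 ± 1.96 to 69.0 ± 2.26 in PM, differences of 4.47 and 3.72 points with overlapping libraries. Its lowest, median and highest values were 61.5, 64.2 and 68.1 in Sham, 65.7, 69.4 and 72.2 in Sham-OVA, 63.1, 65.0 and 68.9 in PM, and 65.5, 69.8 and 71.7 in PM-OVA. Window 9, in the same intron, differed by 3.23 and 3.01 points. Thus the least methylated windows of the gene body, 17 and 11, differed in opposite directions after OVA.

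**Figure D4:**
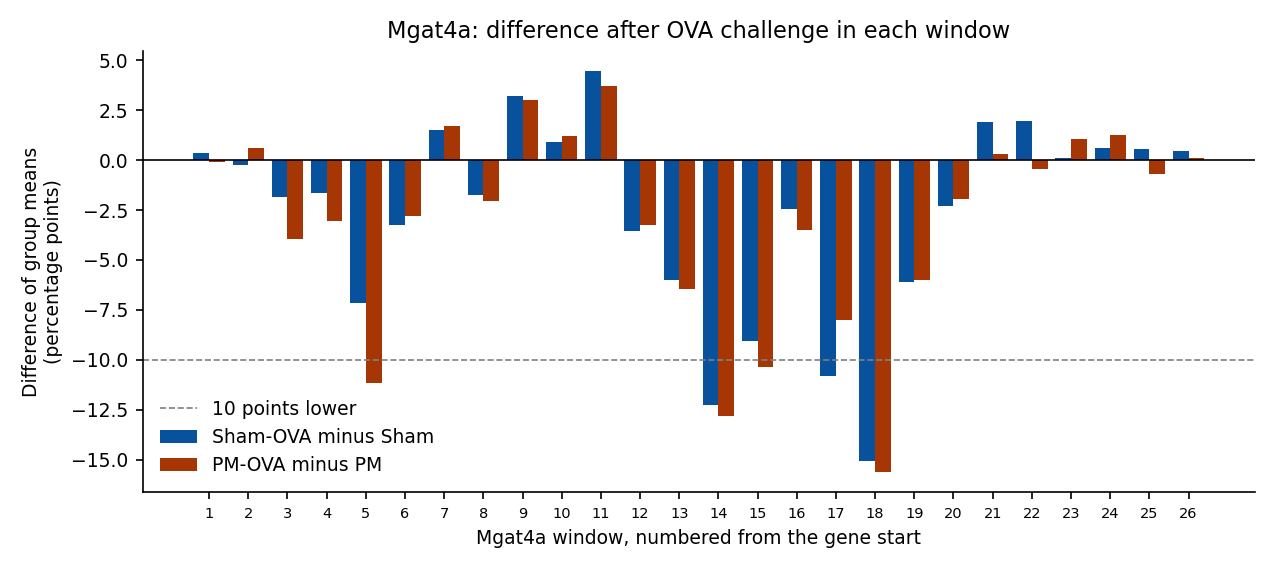
Difference of group mean %DNAm after OVA in each Mgat4a window, in percentage points, for Sham offspring (blue) and PM offspring (brown), with a dashed line at -10 points. The bars of windows 12 to 20 all point down, to -15.1 and -15.6 points in window 18, while window 11 beside them points up by 4.47 and 3.72 points.

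Towards the 3′ end the groups lay together. Window 26, which holds 2926 bases of the last exon among its 3008, was at 92.0 ± 1.11 in Sham, 92.5 ± 0.639 in Sham-OVA, 92.7 ± 0.632 in PM and 92.9 ± 1.03 in PM-OVA, and windows 21 to 26 differed by between -0.720 and 1.97 points. The window named for Unc50 that holds the end of the gene differed by -0.410 and -0.429 points. Of the 10 nearest windows in the table, 5 on each side, 0 were called in either OVA comparison, with differences between -3.64 and 3.77 points. The next window upstream of window 1 starts at 37609498, and the stretch before it was not analysed here.

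A differentially methylated region (DMR) was a window with an adjusted p under 0.05 (limma, all tested windows) and a difference of at least 10 points. Since these OVA differences picked the gene, its counts are a description. For OVA in Sham 3 of the 26 windows were lower by this definition (14, 17 and 18), against 0.296% of 259167 tested windows, and 0 were higher, against 0.479%. For OVA in PM 4 were lower (5, 14, 15 and 18), against 0.321%, and 0 were higher, against 0.263%. Windows 14 and 18 were lower in both, against 0.232% of all windows. The 10-point limit lay between window 17 at -10.8 and window 15 at -9.08 points in Sham, and between window 15 at -10.4 and window 17 at -8.02 points in PM.

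Counting windows whose libraries did not overlap gave 7 lower in Sham, where 5.43% of all windows did so, and 10 lower in PM, where 10.3% did so. In both kinds of offspring 6 windows did (6, 13, 14, 16, 18 and 19), against 3.4% of all windows. Only window 9 in Sham was higher without overlap, against 3.15%, and 0 were in PM, against 1.65%. Among 6685 genes with at least 10 tested windows, Mgat4a was 1 of 64 with 2 or more windows lower in both comparisons, and 6406 had 0. No allowance was made for the number of windows, 26 in Mgat4a. By the gene mean, 141 of the 6685 in Sham and 238 in PM, Mgat4a included, had a difference at least as negative.

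The profile of differences over the 26 windows was alike in the offspring of Sham and PM dams, which share no library (Pearson r = 0.966, Spearman rho = 0.925 over windows, a description, since windows are not replicates). Within the 24 methylated windows the mean difference after OVA was related weakly to CpG density (r = -0.328), to the Sham level (r = 0.243) and to the share of repeat-masked bases (r = 0.192). The 11 methylated windows with an exon of Mgat4a-205, window 1 with exon 1 being left out, had a median difference of 0.116 points in Sham and -0.720 points in PM, and the 13 methylated windows without one -2.45 and -3.48 points.

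Windows of the run deviated little together from library to library. After removal of the group means, the median r over the 29 libraries was 0.101 for the 36 pairs of windows within the run and 0.172 for the 105 pairs of other methylated windows. Windows 14 and 18 had an r of 0.515, whereas the neighbouring windows 17 and 18 had -0.0999. The highest among the 5 windows with the most negative differences was 0.711, for windows 5 and 15, which lie apart and share the high Sham-OVA replicate 7. These values carry library-wide shifts as well.

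Maternal exposure was not used to choose the gene and could be tested. It was asked whether %DNAm of Mgat4a differed between offspring of PM and Sham dams, without and with OVA, and whether the OVA difference itself depended on the dam's exposure. By the DMR definition (limma) 0 of the 26 windows differed between PM and Sham (0% of all windows), 0 between PM-OVA and Sham-OVA (0%), and 0 in the interaction (0%), which sets the OVA difference of PM offspring against that of Sham offspring, as PM less Sham. At an unadjusted p under 0.05 there were 1, 2 and 1 of the 26, against 5.79, 5.96 and 7.40% of all windows.

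In the windows with the most negative differences the interaction did not pass the test. For single windows the intervals come from a fit on the percent scale and the adjusted p from the fit on the log2 ratio. For window 18 the interaction was -0.576 points (95% interval -4.11 to 2.96, limma adjusted p = 0.957), and PM-OVA differed from Sham-OVA by -0.213 points (-2.67 to 2.24, adjusted p = 0.990). For window 14 the interaction was -0.564 points (-3.78 to 2.65, adjusted p = 0.955). The wider contrast in window 5, -7.15 against -11.2 points, gave an interaction of -4.01 points whose interval ran from -8.18 to 0.169 (adjusted p = 0.679), and window 17 gave 2.81 points (-0.569 to 6.20, adjusted p = 0.731). Differences of several points between the dams' groups in windows 5 and 17 thus lie within these intervals.

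The smallest p for PM against Sham was that of window 22, with exon 9, at 2.15 points (77.0 ± 1.53 to 79.1 ± 1.70, 95% interval 0.318 to 3.98), a log2 ratio of 0.18 with a standard error of 0.07 and a limma adjusted p of 0.846. For PM-OVA against Sham-OVA it was that of window 3, in the first intron, at -1.59 points (70.1 ± 1.07 to 68.5 ± 1.08, 95% interval -2.67 to -0.518), a log2 ratio of -0.11 with a standard error of 0.04 and an adjusted p of 0.816. Window 3 also had the smallest p for the interaction, at -2.13 points (95% interval -3.68 to -0.581, log2 ratio -0.14, standard error 0.06, adjusted p = 0.626). These intervals are for single windows and leave out 0, but none of the windows passed the threshold after adjustment over all windows. Over the whole gene, PM and Sham differed by 0.387 points (95% interval -0.274 to 1.05, limma adjusted p = 0.720 over 18957 genes), PM-OVA and Sham-OVA by -0.0643 points (-0.704 to 0.575, adjusted p = 0.956), and the interaction was -0.451 points (-1.37 to 0.469, adjusted p = 0.568). For these 3 comparisons 0 genes passed, with 1282, 1427 and 2593 genes at an unadjusted p under 0.05. The signs of the PM-OVA difference and of the interaction of the gene mean turned positive with a median over windows or with centred libraries.

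**Figure D5:**
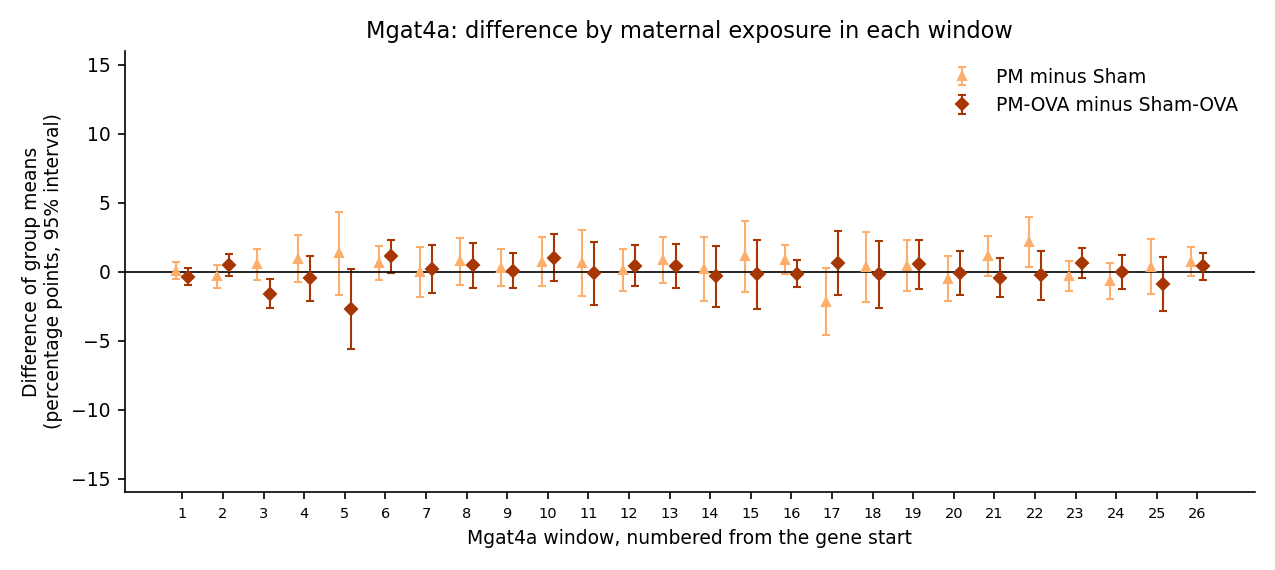
Difference of group mean %DNAm by maternal exposure in each Mgat4a window with its 95% interval, in percentage points, for PM minus Sham (light triangles) and PM-OVA minus Sham-OVA (dark diamonds). All differences lie between -2.70 and 2.15 points, and no window passed the test after adjustment.

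Other genes of N-glycan trimming, branching and extension were read from a list of 26, of which 25 were in the table with 492 windows. The list was chosen with earlier results of these data known, so its OVA counts here and its OVA p-values below are a description. DMRs after OVA were lower in 9 of these windows in Sham (1.83%, against 0.296% of all tested windows) and in 13 in PM (2.64%, against 0.321%). Those in Sham lay in B3gnt2 (3), St6gal1 (3), Man1a (2) and Mgat5 (1). Those in PM lay in St6gal1 (4), Man1a (3), B3gnt2 (2), Mgat5 (2), Man1b1 (1) and Man1c1 (1). Higher DMRs were found in 2 windows in Sham (0.407%, against 0.479%) and in 3 in PM (0.61%, against 0.263%). Over the list the median window differed by -0.437 (Sham) and -1.12 points (PM), beside -0.414 and -1.03 points over all tested windows. In the maternal comparisons and the interaction 0 windows of the list were called, with 33, 34 and 41 at an unadjusted p under 0.05, which is 6.71, 6.91 and 8.33% of the list beside 5.79, 5.96 and 7.40% of all windows.

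Among the genes closest to Mgat4a, its isoenzyme Mgat4b went the other way at 1 window. The window at chr11:50230704-50231573 rose from 55.2 ± 5.25 to 66.1 ± 5.40 in Sham (n = 7 each, limma adjusted p = 0.00114) and from 52.1 ± 4.24 (n = 7) to 65.5 ± 4.52 (n = 8) in PM (adjusted p = 8.09e-05). Averaged over its 8 windows, Mgat4b differed by 2.79 and 2.25 points. The gene means of the related Mgat4c, Mgat4d, Mgat4e and Mgat4f had 0 DMRs and differed by between -2.05 and 0.278 points in Sham and between -2.34 and 1.21 points in PM. Mgat1, which starts the branched forms, and Mgat3, which adds the bisecting residue, also had 0, as had Mgat5b.

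Mgat5, which adds another branch, had a window at chr1:127345180-127350218 that fell from 70.9 ± 1.477 to 60.0 ± 2.65 in Sham (limma adjusted p = 4.27e-09) and from 71.3 ± 0.668 to 60.4 ± 1.66 in PM (adjusted p = 1.32e-09). A second Mgat5 window was called in PM alone, at -10.01 points against -8.91 points in Sham. Its gene mean over 61 windows differed by -1.37 and -2.13 points.

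Of the mannosidases that trim the chain before branching, Man1a had 2 lower windows in Sham and 3 in PM, with differences of up to -14.2 points in PM. Man1b1 and Man1c1 each had 1 lower window in PM alone, where the differences in Sham were -9.90 and -7.59 points. Of the enzymes that extend the branches, B3gnt2, which builds polylactosamine, had 3 lower windows in Sham and 2 in PM. Its window at chr11:22854481-22858300 fell from 45.5 ± 1.13 to 31.3 ± 2.94 in Sham (limma adjusted p = 4.65e-09) and from 45.1 ± 2.57 to 32.5 ± 2.15 in PM (adjusted p = 1.01e-08).

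The sialyltransferases were split. St6gal1 had 3 lower windows in Sham and 4 in PM, with differences from -10.2 to -12.8 points in those called. St3gal6 had 1 window, at chr16:58509361-58513488, that rose from 37.9 ± 2.52 to 53.4 ± 4.67 in Sham (limma adjusted p = 3.01e-07) and from 37.2 ± 3.16 to 50.1 ± 3.49 in PM (adjusted p = 1.63e-06). St3gal4 had 1 higher window in PM alone, at 10.6 points against 7.23 points in Sham. Windows called in only one kind of offspring are not shown to differ between them, since 0 windows of the list were called in the interaction.

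Genes with the most similar pattern across libraries were sought among the 6685 genes, by the correlation of the gene mean less the library's mean over all windows. The highest 5 were Akna (r = 0.969), which encodes an AT-hook protein, Hvcn1 (0.956), a proton channel, Ubac2 (0.955), Tnfaip8 (0.954) and Irak3 (0.954), an inhibitor of Toll-like receptor signalling. These r, over 29 libraries, mostly follow the split between OVA and unchallenged libraries, and 292 genes exceeded 0.9 while 400 lay below -0.9, with a median of -0.125 over the 6685 genes. With group means removed the 5 values were 0.744, 0.654, 0.607, 0.699 and 0.657, and since the genes were chosen for a high r over the same libraries these are partly fixed by that choice.

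Means over markers of cell types moved with OVA as well. The mean over the windows of 23 leucocyte genes, relative to all windows of a library, ranged from -1.35 to -0.983 points in Sham, from -3.08 to -2.20 in Sham-OVA, from -1.51 to -0.864 in PM and from -3.07 to -2.10 in PM-OVA, without overlap between challenged and unchallenged libraries. Of their 149 windows 13 were lower in Sham (8.72%, against 0.296% of all windows) and 12 in PM (8.05%, against 0.321%), and 0 were higher, against 0.479 and 0.263%. Of the 185 windows of the lung structural genes 1 was lower in each (0.541%, against 0.296 and 0.321% of all windows), and 3 were higher in Sham (1.62%, against 0.479%) and 1 in PM (0.541%, against 0.263%). The lower windows in Sham lay in 5 of the 23 genes, namely Lcp1 (5), Ptprc (3), Coro1a (2), Cd79b (2) and Epx (1), and those in PM in Lcp1 (5), Ptprc (3), Cd79b (2), Coro1a (1) and Vav1 (1). For the typical leucocyte window, the median OVA difference stayed near that of all tested windows. In Sham offspring it stood at -0.640 against -0.414 points, and in PM offspring at -1.06 against -1.03. The shift of the list mean was therefore not shared evenly by its windows. As gene means, members of the list ranged from Cd79b, a subunit of the B cell receptor, at -10.7 (Sham) and -12.4 points (PM), to Vav1, a signalling protein of leucocytes, at 0.847 points in Sham, and to Itgam, an integrin of myeloid cells, at 0.287 points in PM. Relative to all windows of a library, the mean over 21 lung structural genes went from -5.14 ± 0.336 to -3.43 ± 0.163 in Sham. In PM it went from -4.89 ± 0.394 to -3.49 ± 0.293. Without that reference, their median window differed by 1.13 points in Sham and 0.140 points in PM. As gene means they ranged from Myh11, at -1.40 (Sham) and -2.28 points (PM), to Ager, at 5.95 and 3.98 points. The part of the cell mix in the Mgat4a values was not tested.

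The table holds percentages without read counts, so the depth behind a single window's value is unknown here, although the study describes each library as deeply covered, and the number of libraries sets the precision. Libraries had values in 258952 to 260135 windows and a mean %DNAm of 67.8 to 70.2. Sham replicate 1 had values in 1224 of 1230 windows of the Y chromosome, against 29 to 46 in the other libraries, which goes against the female label. Without it the run differed by -7.56 points in Sham, and 3 windows were still called in Sham and 4 in PM.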

How the data were processed

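Lung DNA of 29 libraries was converted enzymatically and sequenced. Per the labels and the methods of the study, the authors used Trim Galore for trimming and DRAGEN for mapping (GRCm38) and methylation calls, with lambda DNA as a spike-in. The deposited values are a percent methylation per window and library, averaged by the authors over the bases of each sliding window, and windows that overlap an Ensembl gene were used. No normalisation between libraries is described, and replicates were not pooled. Columns were assigned through the library names in the labels.

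The members and gene lists used here were chosen with earlier results of these data known. Windows with at least 3 values in each group were tested (259167; 1519 were not). The log2 ratio of percent methylated to percent unmethylated was taken after adding 1 point to both, the means of the 4 groups were estimated jointly in limma 3.58.1 under R 4.3.3, and 2-sided p-values were adjusted by Benjamini-Hochberg over all windows. Gene means were fitted likewise on the percent scale over 18957 genes with at least 3 windows. The code of the window fit on the log2 ratio was run on simulated windows with known changes, and the fit of gene means was not. Windows named in the text were those at the gene start, the 5 with the lowest and the 2 with the highest mean OVA difference, those with the smallest p in each maternal comparison, the last one, and 5 neighbours on each side; other windows are named after their values were seen. Genes were annotated with GENCODE M21, and sequences came from RefSeq GRCm38.p6; 1 sequence is not reported here. Tables were handled in R with data.table, at version 1.17.8, and Python 3.11.15, pandas 2.3.3, numpy 2.4.6 and matplotlib 3.10.9 were used. Replicate numbers, taken from the sample titles, do not pair the groups: the deviations of same-numbered libraries had r between -0.0669 and 0.0879 over 28 pairs. Library names carry other numbers in places, and pairing by those was not examined. Alternatives covered the offset, the scale, centring, missing values, the groups fitted, thresholds, the gene summary, a replicate block and leaving out each library.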

Additional observations from a re-analysis of the deposited data

Results flagged for a closer look

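In 7 of 108 groups of libraries tested, over the 26 windows and the gene mean, 1 library lay far from the rest, where chance flags about 1 in 20. At the gene start these were Sham-OVA replicate 2 at 2.10% in window 1, with the next library at 0.365%, and Sham replicate 5 at 2.32% and PM-OVA replicate 3 at 3.11% in window 2. In window 14 Sham-OVA replicate 7 stood at 72.1%, above the next at 67.2% and below every Sham library. It was also the highest Sham-OVA library in windows 5 and 15. In window 9 PM-OVA replicate 8 was low, at 78.8%. In window 22, the window with the smallest p for PM against Sham, Sham replicate 2 was high at 80.1% and PM replicate 5 low at 75.5%.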

How the results depend on the processing

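With a minimum difference of 5 points, 7 Mgat4a windows were called for OVA in Sham and 7 for OVA in PM. Leaving out each library in turn gave 3 to 4 calls in both; 4 in Sham were reached without Sham-OVA replicate 7, and 3 in PM without PM-OVA replicate 1. Centring also left 3 in PM. Under every alternative run, 0 windows were called for either maternal comparison or the interaction. Taking the median over windows, the gene differed by -1.79 points after OVA in Sham and -1.76 in PM, and by 0.590 for PM with OVA and 0.0288 for the interaction, both of which thereby changed sign. Centring the libraries gave -2.07 for OVA in PM, 0.224 for PM with OVA and 0.133 for the interaction, again with the opposite sign. The gene mean for PM with OVA ranged from -0.219 to 0.163 over libraries left out. With the replicate number as a block, 3 and 4 windows were called after OVA, and the interaction of the gene mean was -0.425 points (limma adjusted p = 0.598), so the block changed no call. The cause of these changes was not tested. Precision is limited by 7 or 8 libraries a group, unknown depth per window, unknown litters and whole tissue.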
